A study of Mus musculus with 8 samples.

Results

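The levels of 10 genes that mark excitatory neurons of successive cortical layers were compared between mice with bilateral carotid artery stenosis (BCAS) and sham-operated mice, in the cerebral cortex of the right side. The members were chosen by symbol, from upper to deep layers, as Cux2, Rorb, Rspo1, Fezf2, Bcl11b, Etv1, Foxp2, Tle4, Syt6 and Nxph4. They are 10 of the 54752 genes in the count tables, and all 10 were among the 17136 genes with enough counts to be tested. Each of the 8 libraries came from 1 adult male wild-type C57BL/6 mouse (C57BL/6 J in the study's methods), with 4 mice in the Sham group and 4 in the BCAS group, taken 3 weeks after surgery. BCAS mice had a microcoil around each common carotid artery, with the narrower coil on the right, the side that was sequenced. Sham mice had the same operation without coils, and both groups were wild type. The tissue was a piece of whole cortex with no sorting of layers or cells. In such bulk samples, fewer cells of a type and less RNA per cell cannot be told apart.

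Excitatory neurons of the cortex use glutamate and are arranged in layers with different connections. Upper-layer neurons project within the cortex, layer 4 neurons receive input from the thalamus, layer 5 neurons send axons to the brainstem, spinal cord and striatum, and layer 6 neurons project mainly back to the thalamus. Layer identity is set during development by transcription factors, several of which remain expressed in the adult and serve as markers. Some of these genes are also used outside the cortex, since Bcl11b and Foxp2 are both expressed in projection neurons of the striatum.

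The comparison addresses how transcripts of each layer differed after hypoperfusion. The 3 upper-layer markers Cux2, Rorb and Rspo1 were lower in BCAS mice, with a mean that differed from that of Sham by -34.3% for Rorb, -38.9% for Cux2 and -59.5% for Rspo1, whereas no marker of layer 5, 6 or 6b passed the adjusted threshold in either direction. The layer 5 marker Fezf2 had a log2 fold change of -0.89, between those of Rspo1 and Cux2, with no overlap between the groups, and it passed in 4 of 18 alternative fits. The difference between layers was not tested. Among the further layer genes described below, 2 of 10 layer 5 genes were lower and none higher. Of 9 layer 6 genes there, 2 were lower and 2 higher. An adjusted p under 0.05 over all tested genes was required, from edgeR's quasi-likelihood test. By this rule 30% of the 10 markers were lower, beside 12.8% of all tested genes, and none was higher, beside 19.2%, so that 32% of all tested genes passed in either direction. The markers were chosen with earlier results of these data known, so these shares are a description and not a test. The count of lower markers and the share of all tested genes that were lower varied with the mouse left out. Without Sham mouse 3 the count stayed at 3 (8.21% of all genes). Without Sham mouse 1 there was 1 lower marker (2.37% of all genes), without Sham mouse 2 there were 2 (2.95%) and without Sham mouse 4 there were 0 (3.09%). Without BCAS mouse 1 there were 4 (11.2%), without BCAS mouse 2 there were 5 (20.9%), without BCAS mouse 3 there was 1 (4.19%) and without BCAS mouse 4 there were 0 (4.03%). Only Rspo1 also had a log2 fold change below -1, which 1.28% of tested genes reached in this direction, while 11% passed with a log2 fold change above 1. The median log2 fold change was -0.29 over the 10 markers and -0.01 over all tested genes.

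The libraries held 16759364 to 21794435 counts on genes. Values are given as CPM, counts scaled to one common library total, after TMM normalization, whose factors lay between 0.950 and 1.05. The smallest count of any marker in any library was 36. Mitochondrial transcripts took 0.0585% to 0.0895% of the counts. BCAS mouse 1 stood apart most, with root-mean-square differences in log2 CPM of 1.29 to 1.34 from the Sham mice, against 0.617 to 0.671 for BCAS mouse 2. Microglial markers, a list of 10 genes, were higher in BCAS mice in all 10 cases, with a summed level of 350 to 426 CPM in Sham and 1625 to 6218 CPM in BCAS mice. Astrocyte markers were higher for 6 of 8 genes, beside 19.2% of all tested genes, with summed levels of 5279 to 6139 and 6970 to 10010 CPM. The part of these other cell types in the changes of the layer markers was not tested.

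Per kilobase of exon, on the scale of levels, the Sham cortex expressed Tle4 most, at 15.8 ± 1.45 CPM per kilobase (SD, n = 4), and Foxp2 least, at 0.928 ± 0.127. Tle4 was separated from the next gene, Fezf2, with no overlap between the mice. The order then ran Fezf2, Bcl11b, Cux2, Etv1, Rspo1, Syt6 and Rorb, and each of these neighbours overlapped the next in its range over the 4 mice. Nxph4 followed at 2.81 ± 1.12 CPM per kilobase and was separated from both Rorb and Foxp2. In BCAS mice every pair of neighbours overlapped. Tle4 was again first, at 13.8 ± 1.17 CPM per kilobase, and Foxp2 last, at 1.19 ± 0.548. Fezf2 stood at rank 2 in Sham and rank 4 in BCAS mice, and Rspo1 at ranks 6 and 8.

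Cux2, Rorb and Rspo1 mark layers 2/3 and 4. Sequences before their RefSeq starts are shown together with that of Bcl11b, a layer 5 gene that did not pass the threshold and had a fold change near 0. Each line gives the 250 bases before the most upstream transcription start listed for the gene, from RefSeq on GRCm38.p6, which is the mm10 assembly of the count tables, and 8 of the 10 markers had an entry. Against the gene models used for counting, all 250 bases of the Cux2 window and 188 of the Bcl11b window lie inside the gene, since those models start further upstream, and the Rorb and Rspo1 windows lie outside it. The windows are chr5:122049852-122050101 on the minus strand for Cux2, chr19:19111197-19111446 on the minus strand for Rorb, chr4:124986180-124986429 on the plus strand for Rspo1 and chr12:108003415-108003664 on the minus strand for Bcl11b, and capitals mark matches to the motifs named after them.
Cux2: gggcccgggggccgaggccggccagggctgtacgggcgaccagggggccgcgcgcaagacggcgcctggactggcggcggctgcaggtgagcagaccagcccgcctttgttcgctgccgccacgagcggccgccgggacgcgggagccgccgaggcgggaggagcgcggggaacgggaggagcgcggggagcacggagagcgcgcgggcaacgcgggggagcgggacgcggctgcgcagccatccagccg
Rorb: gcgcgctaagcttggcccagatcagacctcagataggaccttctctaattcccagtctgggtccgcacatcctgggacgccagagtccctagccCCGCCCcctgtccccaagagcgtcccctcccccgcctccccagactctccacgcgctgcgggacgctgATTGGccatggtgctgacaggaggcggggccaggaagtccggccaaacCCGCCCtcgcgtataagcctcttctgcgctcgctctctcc
Rspo1: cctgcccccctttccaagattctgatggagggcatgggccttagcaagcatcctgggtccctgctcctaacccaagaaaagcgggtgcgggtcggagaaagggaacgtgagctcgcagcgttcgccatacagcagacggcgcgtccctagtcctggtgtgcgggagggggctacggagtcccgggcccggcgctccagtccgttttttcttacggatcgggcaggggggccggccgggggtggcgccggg
Bcl11b: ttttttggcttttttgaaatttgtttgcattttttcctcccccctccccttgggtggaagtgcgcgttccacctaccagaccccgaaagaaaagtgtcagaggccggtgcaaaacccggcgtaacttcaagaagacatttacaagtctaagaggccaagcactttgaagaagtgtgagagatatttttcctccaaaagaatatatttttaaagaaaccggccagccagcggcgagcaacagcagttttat

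The motifs searched on both strands were the GC box GGGCGG, the CCAAT box, the TATA box TATAAA, the core AGGTCA that ROR-type nuclear receptors bind, and the E-box CAGATG. They were present in 32.7%, 33.8%, 12.4%, 14% and 14.5% of 32817 windows of the same length. No motif is contained in another. The Rorb window held 2 GC boxes and 1 CCAAT box, and none of the 5 motifs occurred in the Cux2, Rspo1 or Bcl11b windows. The share of G and C was 80% for Cux2, 66% for Rorb, 66.8% for Rspo1 and 44.8% for Bcl11b, where the median over all windows was 52.4%. The dinucleotide CG occurred 40, 18, 22 and 9 times, with a median of 6 over all windows. These letters describe the windows and were not related to any binding data.

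Cux2 (ENSMUSG00000042589.18, chromosome 5, 121856366 to 122050102, minus strand) encodes a homeobox transcription factor of upper-layer neurons that shapes their dendrites. Its level was 123, 97.2, 94.0 and 103 CPM in Sham mice 1 to 4, and 43.0, 87.1, 64.6 and 60.5 CPM in BCAS mice 1 to 4. Every BCAS mouse was below every Sham mouse, with BCAS mouse 1 lowest and BCAS mouse 2 closest to the Sham range. The mean fell from 104 ± 13.2 to 63.8 ± 18.2 CPM (SD, n = 4), a log2 fold change of -0.71 (SE 0.19, edgeR adjusted p = 0.0251). The call was lost without Sham mouse 1, 2 or 4 or BCAS mouse 3 or 4, with edgeR adjusted p-values of 0.0551 to 0.0739 and log2 fold changes of -0.75 to -0.63.

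Rorb (ENSMUSG00000036192.15, chromosome 19, 18930605 to 19111196, minus strand) encodes a nuclear receptor of layer 4 neurons. It was measured at 73.3, 48.0, 44.9 and 49.5 CPM in Sham mice 1 to 4 and at 31.0, 40.9, 36.0 and 33.9 CPM in BCAS mice 1 to 4. The groups did not overlap, and Sham mouse 1 lay far above the other Sham mice. The log2 fold change was -0.61 (SE 0.16, edgeR adjusted p = 0.0245). Without Sham mouse 1 it was -0.43 and the call held (edgeR adjusted p = 0.0439). Without Sham mouse 4, BCAS mouse 3 or BCAS mouse 4 the edgeR adjusted p was 0.0504 to 0.0629.

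Rspo1 (ENSMUSG00000028871.7, chromosome 4, 124986430 to 125009099, plus strand) encodes R-spondin 1, a secreted protein that enhances Wnt signalling, and its transcript is found in layer 4. Sham mice 1 to 4 had 20.9, 9.22, 7.42 and 11.3 CPM, and BCAS mice 1 to 4 had 3.12, 5.66, 6.85 and 4.19 CPM. The groups were separated by a narrow margin, since BCAS mouse 3 lay just under Sham mouse 3. Its log2 fold change of -1.31 (SE 0.36, edgeR adjusted p = 0.0259) was the largest decrease of the 10 markers, a 2.47-fold lower mean. The call rested on several libraries and was lost without Sham mouse 1, where the log2 fold change was -0.92 (edgeR adjusted p = 0.0643), and without Sham mouse 4 or BCAS mouse 4 (edgeR adjusted p = 0.0571 and 0.0680).

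**Figure D1:**
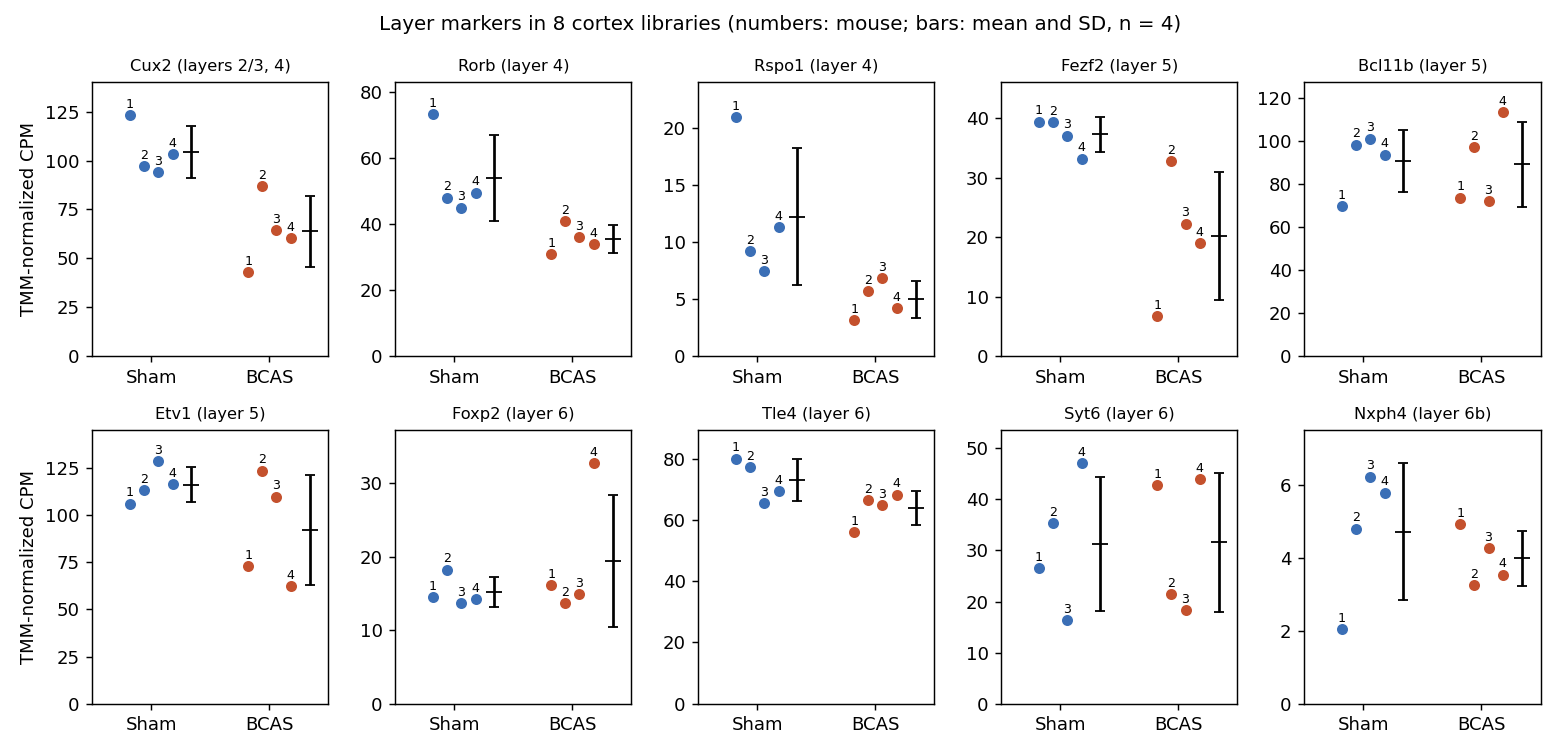
TMM-normalized CPM of the 10 layer markers in each mouse (points, numbered by mouse), with the mean and SD of each group beside them and each axis starting at 0. All BCAS mice lie below all Sham mice for Cux2, Rorb, Rspo1 and Fezf2, and the groups overlap for the other 6 genes.

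Among the layer 5 markers, Fezf2 had the larger drop but varied widely between BCAS mice. Fezf2 (ENSMUSG00000021743.6, chromosome 14, 12342094 to 12348189, minus strand) encodes a zinc finger factor that specifies subcortically projecting neurons. It was steady in Sham mice 1 to 4, at 39.5, 39.4, 37.1 and 33.2 CPM, and reached 6.71, 32.9, 22.3 and 19.0 CPM in BCAS mice 1 to 4. The values did not overlap, although BCAS mouse 2 lay only just under Sham mouse 4. The coefficient of variation was 7.81% in Sham and 53.3% in BCAS mice. The log2 fold change of -0.89 (SE 0.37, 95% interval -1.72 to -0.05) did not pass the threshold (edgeR adjusted p = 0.0925). Without BCAS mouse 1 it was -0.58 and passed (edgeR adjusted p = 0.0319), and without BCAS mouse 2 it was -1.21 and also passed (edgeR adjusted p = 0.0147).

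Bcl11b (ENSMUSG00000048251.15, chromosome 12, 107910403 to 108003602, minus strand), also known as Ctip2, encodes a zinc finger factor of subcerebral projection neurons. Its level was 69.6, 98.5, 101 and 93.8 CPM in Sham mice 1 to 4 and 73.8, 97.4, 72.1 and 114 CPM in BCAS mice 1 to 4. The ranges overlapped almost fully. Its log2 fold change was -0.03 (95% interval -0.42 to 0.37, edgeR adjusted p = 0.922), so that a change of more than 0.42 in either direction lay outside the interval. Etv1 (ENSMUSG00000004151.17, chromosome 12, 38779380 to 38870484, plus strand) encodes an ETS factor of layer 5. It was measured at 106, 114, 129 and 116 CPM in Sham mice 1 to 4 and at 73.1, 124, 110 and 62.5 CPM in BCAS mice 1 to 4. BCAS mice 1 and 4 lay below the Sham range and BCAS mice 2 and 3 within it. The log2 fold change was -0.33 (95% interval -0.79 to 0.13, edgeR adjusted p = 0.227), and without BCAS mouse 2 it was -0.50 and passed (edgeR adjusted p = 0.0471). Without BCAS mouse 1 it was -0.23, and without BCAS mouse 4 it was -0.185 (edgeR adjusted p = 0.451).

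The 4 markers of layers 6 and 6b had log2 fold changes between -0.24 and 0.35, and the groups overlapped for each of them. Foxp2 (ENSMUSG00000029563.16, chromosome 6, 14901349 to 15441977, plus strand) encodes a forkhead repressor of layer 6 neurons. It had 14.5, 18.2, 13.7 and 14.2 CPM in Sham mice 1 to 4 and 16.1, 13.7, 14.9 and 32.7 CPM in BCAS mice 1 to 4. BCAS mouse 4 alone was high and the other BCAS mice were within the Sham range. The log2 fold change of 0.35 (95% interval -0.26 to 0.97, edgeR adjusted p = 0.337) became -0.023 without BCAS mouse 4.

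Tle4 (ENSMUSG00000024642.16, chromosome 19, 14448072 to 14598051, minus strand) encodes a Groucho-type co-repressor of layer 6 corticothalamic neurons. It had the smallest coefficient of variation of the 10 markers in BCAS mice, 8.48%, with 80.1, 77.4, 65.6 and 69.5 CPM in Sham mice 1 to 4 and 56.1, 66.5, 64.9 and 68.4 CPM in BCAS mice 1 to 4. BCAS mouse 1 was lowest, BCAS mouse 3 lay just under the Sham range, and the other BCAS mice were within it. On the log2 scale the groups differed by -0.19 (95% interval -0.41 to 0.02, edgeR adjusted p = 0.141), with -0.12 without BCAS mouse 1 and -0.10 with library sizes alone.

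Syt6 (ENSMUSG00000027849.18, chromosome 3, 103575231 to 103645569, plus strand) encodes a synaptotagmin and is used as a marker of layer 6 corticothalamic neurons. It ranged as widely within the groups as between them, with 26.5, 35.3, 16.3 and 47.2 CPM in Sham mice 1 to 4 and 42.8, 21.5, 18.3 and 43.9 CPM in BCAS mice 1 to 4. Its log2 fold change was 0.01 with a 95% interval of -0.83 to 0.85 (edgeR adjusted p = 0.979), which leaves room for large changes in either direction. A pseudogene, Atg4a-ps, covers 8.67% of its exon bases on the opposite strand, and counting ignored strand, so reads from the 2 cannot be told apart there. No other marker shared exon bases with another gene.

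Nxph4 (ENSMUSG00000040258.6, chromosome 10, 127525473 to 127534559, minus strand) encodes a secreted neurexophilin, a ligand of neurexins, and marks layer 6b. It had the fewest counts, with 2.04, 4.80, 6.22 and 5.78 CPM in Sham mice 1 to 4 and 4.91, 3.24, 4.26 and 3.53 CPM in BCAS mice 1 to 4. Sham mouse 1 was below every other mouse of both groups. Its difference between groups was -0.24 on the log2 scale (95% interval -0.97 to 0.50, edgeR adjusted p = 0.593), with -0.50 without Sham mouse 1 and -0.082 without Sham mouse 3.

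The groups did not overlap and BCAS mice were lower for 4 of the 10 markers, Cux2, Rorb, Rspo1 and Fezf2, where 16.3% of all tested genes had this pattern. By layer, the median log2 fold change was -0.71 for the 3 upper-layer markers, -0.33 for the 3 layer 5 markers and -0.09 for the 4 markers of layers 6 and 6b. This gradient is a description of few genes and was not tested. The lists of further layer genes below did not keep it. Their medians were -0.35 for layer 2/3, -0.12 for layer 4, -0.25 for layer 5, -0.63 for layer 6 and -0.12 for layer 6b. In 3 of the 10 markers, Cux2, Rorb and Fezf2, the BCAS mice stood in the order 1, 4, 3 and 2 from the lowest, and in the other 7, Rspo1 among them, they did not. Relative to the Sham mean of log2 CPM, Fezf2 stood at -2.47, -0.18, -0.74 and -0.97 in BCAS mice 1 to 4 and Cux2 at -1.27, -0.25, -0.69 and -0.78. Foxp2 and Syt6 stood at 0.10 and 0.55 in BCAS mouse 1 and 1.12 and 0.59 in BCAS mouse 4.

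**Figure D2:**
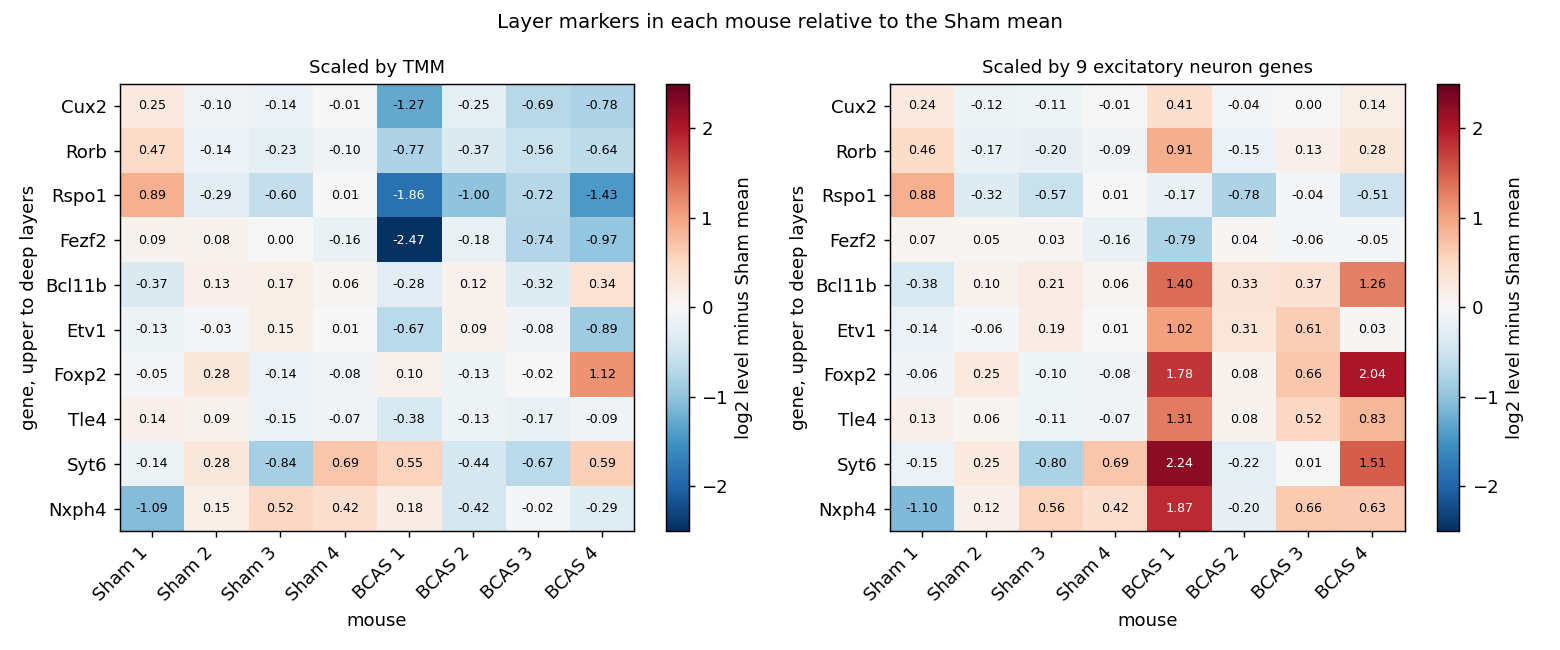
Log2 level of each layer marker in each mouse minus the mean of the Sham mice, with libraries scaled by TMM on the left and by 9 excitatory neuron genes on the right (red higher, blue lower). On the left, Cux2, Rorb, Rspo1, Fezf2 and Tle4 are below 0 in all 4 BCAS mice, down to -2.47 for Fezf2 in BCAS mouse 1. On the right, Rspo1 and Fezf2 are below 0 in BCAS mice 1 and 4. All other rows are above 0 in these mice, from 0.03 for Etv1 in BCAS mouse 4 to 2.24 for Syt6 in BCAS mouse 1.

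A second scale came from 9 transcripts shared by excitatory neurons of many layers. They were Slc17a7, the vesicular glutamate transporter, Camk2a, Neurod2, Neurod6, Sv2b, Slc30a3, Camkv, Arpp21 and Nrgn. All 9 had negative log2 fold changes with a median of -0.84, from -0.34 for Arpp21 (edgeR adjusted p = 0.239) to -1.15 for Nrgn, which encodes neurogranin (edgeR adjusted p = 0.0249). Of the 9, 3 passed as lower, beside 12.8% of all tested genes. The count of lower genes was 0 without Sham mouse 1, 2 or 4 or BCAS mouse 3 or 4, where 2.37% to 4.19% of all tested genes were lower. It was 1 without Sham mouse 3 (8.21%), 6 without BCAS mouse 1 (11.2%) and 8 without BCAS mouse 2 (20.9%). The log2 fold change of Nrgn was -1.37 to -0.91 over the fits that left out 1 mouse. Their summed level was 7925 to 9177 CPM in Sham mice and 2971, 7001, 5023 and 4532 CPM in BCAS mice 1 to 4, the same order of mice as for Cux2.

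When each library was scaled by the geometric mean of these 9 genes in place of TMM, no layer marker was lower in BCAS mice. Cux2 had a log2 fold change of 0.13 on this scale (95% interval -0.35 to 0.61), Rorb 0.32 (-0.33 to 0.97), Rspo1 -0.46 (-1.29 to 0.37) and Fezf2 -0.18 (-0.77 to 0.41), so that changes within these intervals were not resolved. Bcl11b, Foxp2 and Tle4 were higher, with log2 fold changes of 0.90, 1.34 and 0.75 and edgeR adjusted p-values of 0.0254, 0.0215 and 0.0374. This scale sets every transcript against genes with negative fold changes, and on it 62.2% of all tested genes were higher and 0.0817% lower, and the 3 of 10 markers are no more than that background. The median was 0.64 over the 10 markers and 0.96 over all tested genes. The 3 calls were each lost without any 1 of the 4 Sham mice or without BCAS mouse 4, with edgeR adjusted p-values of 0.0525 to 0.0956, where 24.6% to 40% of all tested genes were higher. By layer, the medians on this scale were 0.13 for the upper-layer markers, 0.53 for layer 5 and 0.96 for layers 6 and 6b. The lists of further layer genes below did not keep this order. Their medians on this scale were 0.55 for layer 2/3, 0.78 for layer 4, 0.54 for layer 5, 0.12 for layer 6 and 0.45 for layer 6b. The layers were not tested against each other on this scale either.

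**Figure D3:**
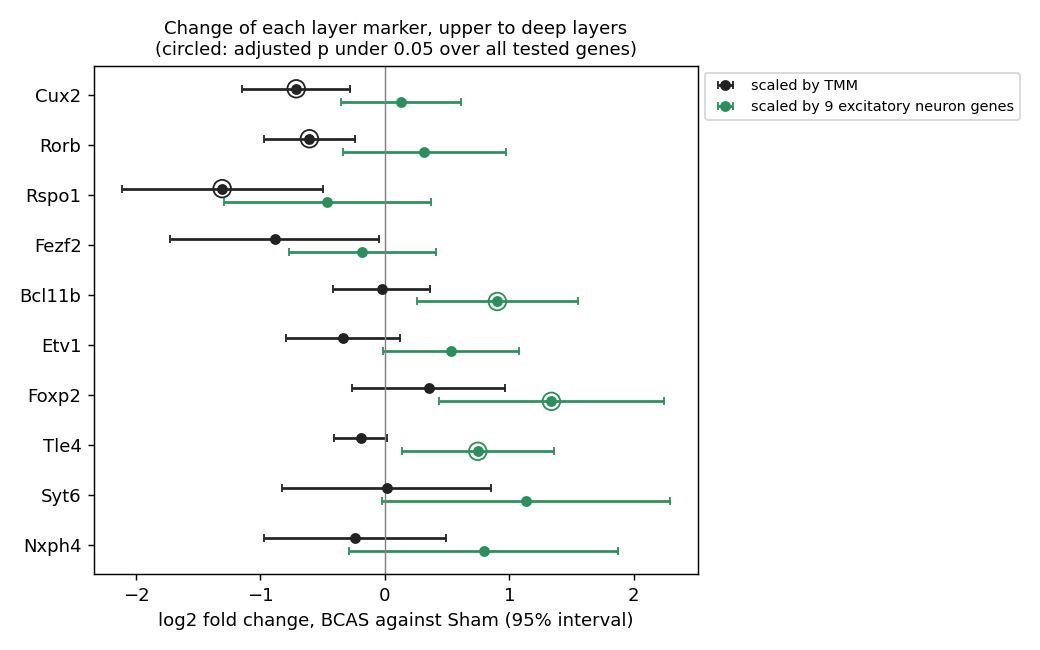
Log2 fold change of each layer marker, BCAS against Sham, with its 95% interval, for libraries scaled by TMM (black) and by 9 excitatory neuron genes (green), ordered from upper to deep layers. Circles mark an adjusted p under 0.05, which are Cux2, Rorb and Rspo1 below 0 on the TMM scale and Bcl11b, Foxp2 and Tle4 above 0 on the other.

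A further 37 layer genes, also chosen with earlier results of these data known, were examined on the TMM scale. Of these, 8 were lower (21.6%, beside 12.8% of all tested genes), 2 were higher (beside 19.2%) and 27 passed in neither direction. The median log2 fold change was -0.29. The count of lower genes was 4 without Sham mouse 1, 2 or 4 (2.37% to 3.09% of all tested genes), 5 without BCAS mouse 4 (4.03%) and 15 without BCAS mouse 2 (20.9%). The count of higher genes was 0 without Sham mouse 1, 2 or 4 or BCAS mouse 3, 1 without BCAS mouse 4 and 4 without Sham mouse 3 or BCAS mouse 2. In layer 2/3, 3 of 9 genes were lower and none higher, with a median of -0.35. The lower count was 5 without BCAS mouse 2 and 6 under limma-voom with quality weights, and 1 gene was higher without Sham mouse 3. They ran from Lamp5, a membrane protein of the LAMP family, at -1.48 (edgeR adjusted p = 0.00740) to Wfs1 at 0.53 (edgeR adjusted p = 0.147). Lamp5 had 147 to 300 CPM in Sham mice and 47.8 to 103 CPM in BCAS mice. In layer 4, 1 of 4 genes was lower, the nuclear receptor gene Rora at -0.51 (edgeR adjusted p = 0.0369), and Endou stood highest at 0.27 (edgeR adjusted p = 0.669). The layer 4 median was -0.12. Rora did not pass without any 1 of the Sham mice or without BCAS mouse 4 (edgeR adjusted p = 0.0670 to 0.0939), nor with library sizes alone or the replicate block (edgeR adjusted p = 0.0526 and 0.0574), and no layer 4 gene was then lower.

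In layer 5, 2 of 10 genes were lower, beside 12.8% of all tested genes, and none higher, beside 19.2%. The layer 5 median was -0.25. Pcp4, a calmodulin-binding protein gene that shares 23.7% of its exon bases with Igsf5, was lowest at -0.74 (edgeR adjusted p = 0.0185) and Fam84b highest at 0.42 (edgeR adjusted p = 0.128). Fam84b shares 41.7% of its exon bases with 9930014A18Rik on the opposite strand, so reads from the pair cannot be told apart there. The lower count was 0 without Sham mouse 1, 2 or 4 and 1 without BCAS mouse 3 or 4, and 2 layer 5 genes were higher without BCAS mouse 2. Pcp4 did not pass without Sham mouse 1, 2 or 4 (edgeR adjusted p = 0.0546 to 0.0559). In layer 6, 2 of 9 genes were lower and 2 higher, and the median was -0.63. Tbr1, the T-box factor of corticothalamic neurons, fell to -1.10 (edgeR adjusted p = 0.0229), from 171 to 233 CPM in Sham mice to 46.6, 140, 113 and 78.7 CPM in BCAS mice 1 to 4. Osr1 rose by 1.26 (edgeR adjusted p = 0.0223), with 9.65, 3.14, 7.55 and 10.01 CPM in BCAS mice 1 to 4 against 2.99 to 3.54 CPM in Sham mice, so that BCAS mouse 2 stayed within the Sham range. Without Sham mouse 1, 2 or 4 or BCAS mouse 4, Tbr1 did not pass (edgeR adjusted p = 0.0571 to 0.0660) and 1 layer 6 gene was lower, while 5 were lower without BCAS mouse 2 and 4 under limma-voom with quality weights. Osr1 did not pass without those 4 mice in turn or without BCAS mouse 3 (edgeR adjusted p = 0.0525 to 0.0632) nor under limma-voom (adjusted p = 0.0623), and the higher count was then 0, or 1 without BCAS mouse 4 or under limma-voom. Of the 5 layer 6b genes, none passed, with a median of -0.12 between -0.85 for Nxph3 (edgeR adjusted p = 0.128) and 0.85 for Moxd1 (edgeR adjusted p = 0.108). Moxd1 passed without Sham mouse 3 (edgeR adjusted p = 0.0374) and Nxph3 without BCAS mouse 2 (edgeR adjusted p = 0.0269). Under limma-voom with quality weights, 3 of the 5 passed, 1 lower and 2 higher.

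**Figure D4:**
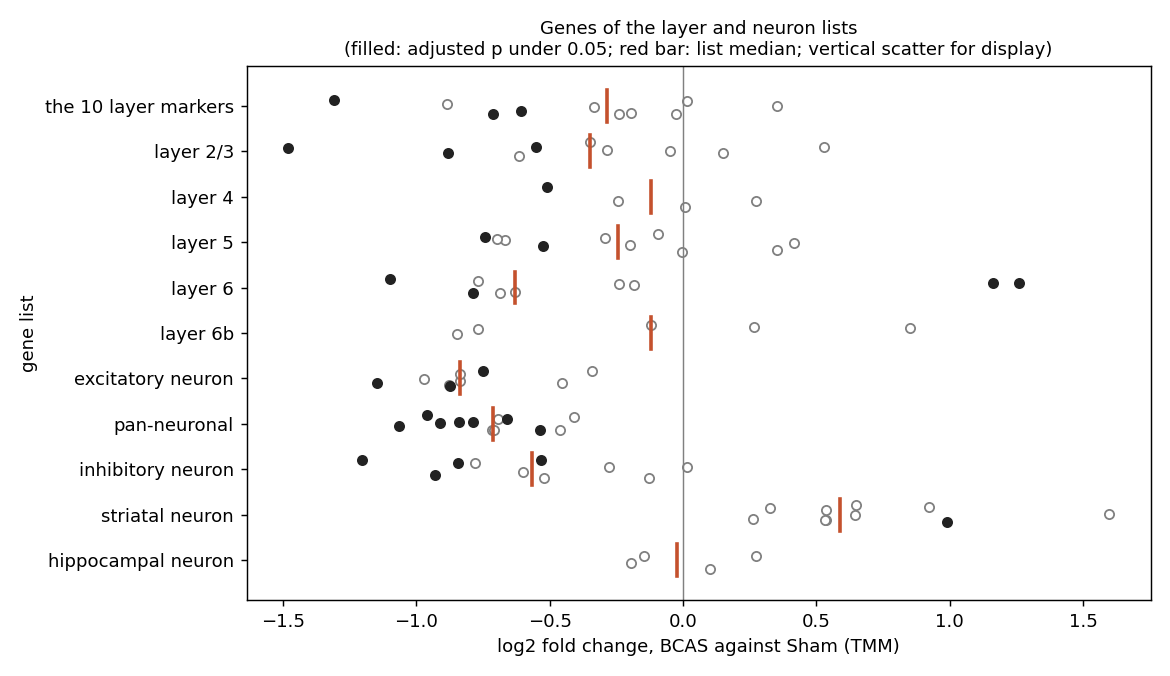
Log2 fold change, BCAS against Sham, of each gene in the layer and neuron lists on the TMM scale, with filled points for an adjusted p under 0.05 and a red bar at the list median. The medians of the excitatory, pan-neuronal and inhibitory lists are -0.84, -0.71 and -0.56, below the -0.29 of the 10 layer markers, and that of the striatal list is 0.59.

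Of 12 pan-neuronal genes 7 were lower, beside 12.8% of all tested genes, and none higher, with a median of -0.71 between -1.07 for Snap25, a protein of synaptic vesicle fusion (edgeR adjusted p = 0.0172), and -0.41 for Celf4 (edgeR adjusted p = 0.118). The lower count was 1 without Sham mouse 1 or 4, 2 without Sham mouse 2 or BCAS mouse 3 or 4, 4 without Sham mouse 3 and 12 without BCAS mouse 2, while the share of all tested genes that were lower ran from 2.37% without Sham mouse 1 to 20.9% without BCAS mouse 2. Snap25 did not pass without Sham mouse 1 or 4 or BCAS mouse 4 (edgeR adjusted p = 0.05005 to 0.0541). Of 10 inhibitory neuron genes 4 were lower, beside the same 12.8% of all tested genes, and none higher, with a median of -0.56. The extremes were Pvalb, the marker of fast-spiking interneurons, at -1.20 (edgeR adjusted p = 0.0495), and Gad2 at 0.02 (edgeR adjusted p = 0.958). The lower count was 1 without Sham mouse 1, 2 or 4 or BCAS mouse 3, and Pvalb did not pass without any 1 of Sham mice 1, 2 and 4 and BCAS mice 1, 3 and 4 (edgeR adjusted p = 0.0650 to 0.135), nor with library sizes alone, a minimum of 10 counts in every library or the replicate block (edgeR adjusted p = 0.0506 to 0.107). With library sizes alone 2 inhibitory genes were lower.

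Striatal neuron markers were present in every library, and like Foxp2 their summed level was highest in BCAS mouse 4. Their summed level over 10 genes was 289, 558, 402 and 343 CPM in Sham mice 1 to 4 and 458, 441, 429 and 908 CPM in BCAS mice 1 to 4, and BCAS mouse 4 was also highest for Bcl11b. Among the other 7 mice, Sham mouse 2 had the highest striatal sum and the highest Foxp2, but the rest did not keep one order in both. Sham mouse 1 had the lowest striatal sum and the lowest Bcl11b, Etv1 and Nxph4 of the Sham mice. It also had the highest Cux2, Rorb, Rspo1, Fezf2 and Tle4 of them, and it was neither highest nor lowest for Foxp2 and Syt6. Of the 10 striatal genes 1 was higher, beside 19.2% of all tested genes. It was the adenosine receptor gene Adora2a at 0.99 (edgeR adjusted p = 0.0460). The median of the striatal genes was 0.59, from 0.26 for Ppp1r1b, which shares 15.7% of its exon bases with 1700003D09Rik on the opposite strand (edgeR adjusted p = 0.463) to 1.6 for Six3 (edgeR adjusted p = 0.0767). Adora2a did not pass without Sham mouse 1, 3 or 4 or BCAS mouse 1, 3 or 4 (edgeR adjusted p = 0.0560 to 0.117), nor with the replicate block (edgeR adjusted p = 0.0884), and 2 striatal genes passed without BCAS mouse 2. Six3 passed under DESeq2, limma on log2(CPM + 1) and limma-voom with quality weights (adjusted p = 0.0295 to 0.0475). Of 5 thalamic neuron markers 3 were higher, beside 19.2% of all tested genes. They were led by Prkcd, which other cell types also express, at 2.14 (edgeR adjusted p = 0.00702), while Ramp3 stood at -1.03 (edgeR adjusted p = 0.0521). Which cells gave the 3 higher values was not tested. The summed level of the 5 markers was 48.6 to 84.4 CPM in Sham and 81.9 to 203 CPM in BCAS mice. Without Sham mouse 1, 1 thalamic gene was higher, and Ramp3, with 7.32% of its exon bases shared with Gm11978 on the opposite strand, passed as lower without BCAS mouse 1 or 2 (edgeR adjusted p = 0.0484 and 0.0178) and under 6 of the 10 other settings (adjusted p = 0.00875 to 0.0478). Of 5 hippocampal markers 4 could be tested and none passed, from -0.19 for Spink8 (edgeR adjusted p = 0.767) to 0.27 for Prox1 (edgeR adjusted p = 0.0572), with summed levels of 37.6 to 42.2 and 40.0 to 47.1 CPM. Prox1 passed without BCAS mouse 2 (edgeR adjusted p = 0.0166) and under 4 of the 10 other settings (adjusted p = 0.0209 to 0.0491). The part of tissue from neighbouring regions in the values of the deep-layer markers was not tested.

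Among the non-neuronal lists, the microglial genes ran from 1.80 for P2ry12 to 4.83 for Cd68 (edgeR adjusted p = 0.00305 and 0.00147) and the astrocyte genes from 0.02 for Slc1a2 to 3.90 for Gfap (edgeR adjusted p = 0.932 and 0.00147). None of 7 oligodendrocyte genes passed, with values between -0.30 for Opalin and 0.47 for Mobp (edgeR adjusted p = 0.172 and 0.115). Of 7 endothelial genes 2 were higher, beside 19.2% of all tested genes, with values between 0.10 for Kdr and 0.87 for Cdh5 (edgeR adjusted p = 0.599 and 0.0183). All 10 microglial genes passed in every fit that left out 1 mouse, and 4 to 6 astrocyte genes did. Without BCAS mouse 2, 2 oligodendrocyte genes were higher, without Sham mouse 3, 1 was lower, and the endothelial count was 0 without Sham mouse 2 or 4 or BCAS mouse 3 and 1 without Sham mouse 1 or 3 or BCAS mouse 4.

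Across the 8 libraries, the pair of layer markers with the most similar profiles was Cux2 and Rorb, whose centred log2 CPM differed by a root mean square of 0.199, followed by Rorb and Tle4 at 0.256 and Bcl11b and Tle4 at 0.276. The 3 genes outside the markers closest to their mean profile were Rrp1, Zdhhc17 and Znhit2, at root-mean-square differences of 0.0294, 0.0411 and 0.0416. Their log2 fold changes were -0.41, -0.44 and -0.40. Without Sham mouse 1, 2 or 4 or BCAS mouse 3 none of the 3 passed (edgeR adjusted p = 0.05003 to 0.0637). Likeness was measured over 8 libraries that share the difference between the groups, and it says nothing of shared function.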

How the data were processed

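RNA-seq of the right cerebral cortex was analysed in 4 Sham and 4 BCAS mice, grouped by the labels, with 1 mouse per library. Per the methods and labels, the authors trimmed the reads with Trim Galore, aligned them to mm10 with HISAT2, sorted them with SAMtools 1.9 and counted read pairs on exons, and they deposited raw counts per gene. Per the file headers, featureCounts 2.0.1 was run with GENCODE vM20 and without a strand option, whereas the methods and labels name featureCounts 1.6.3. Symbols were matched through gene IDs for 54723 of 54752 genes, with Ctgf listed as Ccn2.

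Counts were fitted with edgeR 4.0.16 in R 4.3.3, using filterByExpr (minimum count 10, minimum total 15), TMM and the quasi-likelihood test without covariates, with Benjamini-Hochberg adjustment over all 17136 tested genes. The second scale replaced TMM by the geometric mean count of 9 excitatory neuron genes. Standard errors are the log2 fold change divided by the root of F. The 95% intervals are not adjusted. Log2 CPM for profiles used a prior count of 2. A count of 0 in the smallest library would allow 0.179 CPM (3 counts, counting error only). The fits were tested on simulated data. Alternatives used DESeq2 1.42.0, limma 3.58.1, other scalings and filters, a replicate block and each mouse left out in turn.

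The members and lists were chosen with earlier results of these data known. Named are the markers, the lowest and highest tested gene of each list, and the 3 genes nearest the markers' mean profile. Figures were drawn with matplotlib 3.10.9.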

Additional observations from a re-analysis of the deposited data

Results flagged for a closer look

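Each marker was checked in each group for a mouse whose gap to its nearest neighbour was large against the range of the group by Dixon's test at 95%. Of the 20 groups of 4 mice, 2 held such a mouse, where chance gives about 1 in 20. Rorb stood at 73.3 CPM in Sham mouse 1, with a gap of 0.838 of the range, since the other Sham mice had 44.9 to 49.5 CPM. Foxp2 stood at 32.7 CPM in BCAS mouse 4, with a gap of 0.873 of the range, since the other BCAS mice had 13.7 to 16.1 CPM. In the same libraries the summed striatal markers were lowest of the Sham group, at 289 CPM, and highest of all 8 libraries, at 908 CPM.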

How the results depend on the processing

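Over 10 alternatives for scaling, filter, test and replicate number and 8 fits that left out 1 mouse, the log2 fold changes of Cux2, Rorb, Rspo1 and Fezf2 stayed negative, at -0.89 to -0.55, -0.69 to -0.43, -1.50 to -0.92 and -1.21 to -0.58. The count of layer markers lower at the adjusted threshold stayed at 3 or 4 under 9 of the 10, with none higher, while the share of all tested genes that were lower ran from 5.16% without a filter and 7.59% with library sizes alone to 22.5% with quality weights, and Fezf2 was the added gene under DESeq2 and under limma-voom with quality weights (adjusted p = 0.0487 and 0.00495). With the replicate block, where 6.58% of all genes were lower, none was (0, and 0 below a log2 fold change of -1), with adjusted p-values of 0.0542 for Cux2, 0.0605 for Rorb and 0.0786 for Rspo1 from edgeR's test. The labels do not say that a number is shared, same-numbered libraries deviated from their group means with correlations of -0.103 to 0.001, and 0 of the 4 Sham mice correlated best with its own number. Leaving out 1 mouse gave 0 to 5 lower markers, with 0 without Sham mouse 4 or BCAS mouse 4 and 5 without BCAS mouse 2, and 0 to 2 with a log2 fold change below -1, while none was higher in any of these fits. Relative to the excitatory neuron genes, 3 markers were higher with pan-neuronal genes as the reference (63.5% of all genes), 2 with the replicate block (43.1%) and 0 with limma-voom (36.2%), where the adjusted p was 0.0525 to 0.0717 for the 3. Leaving out 1 mouse gave 0 to 6, the last without BCAS mouse 2 with 78.1% of all genes higher, and none was lower in any of these fits.

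Nrgn did not pass with the replicate block (edgeR adjusted p = 0.0570), and Celf4, Fam84b and Wfs1 passed under limma-voom with quality weights (adjusted p = 0.00658, 0.0356 and 0.0359). The sign of small, uncalled changes turned. Bcl11b was 0.061 with library sizes alone and -0.16 to 0.066 with 1 mouse left out. Syt6 was -0.26 under limma-voom with quality weights and -0.21 to 0.27 with 1 mouse left out. Foxp2 was -0.023 to 0.50 with 1 mouse left out. Gad2 was -0.031 under limma-voom, -0.033 under limma on log2(CPM + 1), -0.042 with quality weights, -0.033 with the replicate block and -0.23 to 0.14 with 1 mouse left out. With 1 mouse left out, Kdr was -0.0061 to 0.18, Ppp1r1b -0.088 to 0.41, Slc1a2 -0.031 to 0.073 and Spink8 -0.67 to 0.065. Of all tested genes 2199 were lower and 3291 higher, against 1300 and 3977 with library sizes alone, 3855 and 4221 under limma-voom with quality weights and 1127 and 2419 with the replicate block. The 8 lower genes among the further layer genes became 15 under limma-voom with quality weights, and the 2 higher ones became 7. The 3 lower excitatory neuron genes became 5 to 8 under 7 of the 10 alternatives and 2 with the replicate block, and the 7 lower pan-neuronal genes 4 with library sizes alone, 11 under DESeq2, 12 under limma-voom with quality weights and 3 with the replicate block. Leaving out 1 mouse gave 418 to 3676 lower genes, and 10655 genes higher relative to the excitatory neuron genes became 4350 to 13720, and 6206 under limma-voom, while the 14 lower ones became 38 with the pan-neuronal reference and 7 with the replicate block, and 1 without Sham mouse 1 or 2 to 34 without BCAS mouse 1. The cause of these differences was not tested.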
